A study of Mus musculus with 4 samples.

Results

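The chromosome 1 neighbours of Ascl5 are 38 genes that lie within a few megabases of the mouse gene Ascl5, the gene of a transcription factor with a basic helix-loop-helix domain. They were taken from a fixed list of symbols, and each of the 38 matched 1 of the 24972 rows of the deposited table. Of these, 31 start before Ascl5 and 7 after it, from Atp2b4 at 2249.8 kb before to Nr5a2 at 909.6 kb past the Ascl5 start. The study compared the dissected mandibular dental arch, where the lower teeth form, from mouse embryos of embryonic day 17.5. There were 2 libraries from Ascl5Mut/Mut embryos, homozygous for an Ascl5 variant (mutant libraries 18 and 14), and 2 from Ascl5WT/WT embryos (wild-type libraries 15 and 20). The sequence of the variant, the strain of the mice, and whether a library is 1 embryo or a pool are not stated in the labels. No treatment or other allele is named for any of the 4 libraries.

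Genes that sit side by side on a chromosome can share enhancers and lie in one domain of folded chromatin. A change of sequence at one gene can therefore alter transcription of genes around it as well as of distant targets of its protein. Comparing the neighbours with the whole table asks whether the genes around Ascl5 stood apart between the genotypes. Factors with a basic helix-loop-helix domain bind E-boxes, short DNA motifs, together with partner proteins, and the forms searched for here were CAGCTG and CAGGTG.

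Values are the authors' normalized counts per gene and library, and they sum to between 22134483 and 22578580 per library. Mutant over wild-type differences are log2 fold changes of the normalized count plus 0.5, fitted with limma over the 17979 rows with a mean of at least 1, with p-values adjusted by Benjamini-Hochberg over those rows and called at 0.05. An exact permutation test of 1 gene could reach no p below 0.333 with 2 libraries in each genotype, and limma therefore borrows variance across genes. No label ties the libraries to separate embryos, so the p-values describe only how these samples spread, and part of that spread may be technical. Of the 5 genes that mark the sex of the embryo, Ddx3y, Eif2s3y, Kdm5d and Uty are listed at 0 in wild-type library 15 and not in the other 3 libraries, so sex and genotype are not balanced. Mutant library 14 also stood apart in several cell type markers, which are given beside the genes they touch. The 6 salivary gland markers summed to 576 and 2624 in mutant libraries 18 and 14 and to 498 and 382 in wild-type libraries 15 and 20. All 6 had a log2 fold change above 0, and 4 did not overlap between the genotypes, beside 27.4% of all tested rows. Dcpp1, Dcpp2 and Bpifa2 were at 0 in some library. Prom2 made up most of the sum except in mutant library 14, at 532 and 882 in mutant and 478 and 377 in wild type. Bpifa2 was at 1009 in mutant library 14 and at 0 elsewhere. Tooth markers were found in every library. Amelx, which encodes the enamel matrix protein amelogenin, had 2421 and 868 normalized counts in mutant libraries 18 and 14, against 263 and 1621 in wild-type libraries 15 and 20. Dspp, which encodes a precursor of dentin matrix proteins, had 1910.2 and 629 normalized counts in mutant libraries 18 and 14, against 687 and 1346 in wild-type libraries 15 and 20. Both genes overlapped between the genotypes.

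Sequences around the annotated starts of Ascl5 and of 3 neighbours show what lies there in genes described here. Each runs from 250 bases before to 50 bases after the start of the gene in RefSeq (GRCm38.p6), is written 5′ to 3′ on the gene's own strand, and has in capitals the motif CAGCTG, the motif CAGGTG and CACCTG as the other strand of that motif. Tnnt2 and Optc are shown as neighbours whose genotypes did not overlap and that hold the motifs, and Chil1 as the neighbour with the smallest p. The windows are chr1:136050554-136050853 on the plus strand for Ascl5, chr1:135836084-135836383 on the plus strand for Tnnt2, chr1:133907950-133908249 on the minus strand for Optc and chr1:134181906-134182205 on the plus strand for Chil1.
Ascl5: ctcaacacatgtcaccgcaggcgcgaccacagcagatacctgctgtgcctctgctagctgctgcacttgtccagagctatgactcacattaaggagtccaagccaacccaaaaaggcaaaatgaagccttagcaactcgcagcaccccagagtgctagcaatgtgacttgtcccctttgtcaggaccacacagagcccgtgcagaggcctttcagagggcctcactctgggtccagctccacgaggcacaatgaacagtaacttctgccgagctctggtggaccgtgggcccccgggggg
Tnnt2: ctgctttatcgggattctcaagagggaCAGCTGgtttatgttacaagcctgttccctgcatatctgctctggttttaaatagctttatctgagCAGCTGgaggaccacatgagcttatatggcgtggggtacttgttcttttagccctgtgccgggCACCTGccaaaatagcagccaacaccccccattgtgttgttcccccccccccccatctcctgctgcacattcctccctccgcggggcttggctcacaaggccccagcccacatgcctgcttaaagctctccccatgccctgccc
Optc: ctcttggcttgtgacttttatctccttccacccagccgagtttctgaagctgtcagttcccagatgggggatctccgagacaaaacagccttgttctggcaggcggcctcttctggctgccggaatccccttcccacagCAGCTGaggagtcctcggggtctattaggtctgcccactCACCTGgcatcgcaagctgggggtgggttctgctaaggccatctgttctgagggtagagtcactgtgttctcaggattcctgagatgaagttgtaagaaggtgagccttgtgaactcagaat
Chil1: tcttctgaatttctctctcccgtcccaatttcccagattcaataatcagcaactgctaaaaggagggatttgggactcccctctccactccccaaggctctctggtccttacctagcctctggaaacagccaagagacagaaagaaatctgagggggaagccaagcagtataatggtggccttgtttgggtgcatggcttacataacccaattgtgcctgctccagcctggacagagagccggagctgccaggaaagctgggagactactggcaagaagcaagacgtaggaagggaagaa

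The Tnnt2 window holds 3 matches, the Optc window 2, and the Ascl5 and Chil1 windows 0. In the Ascl5 window the bases from the annotated gene start onward begin with atg, the letters of a start codon. That annotated start may therefore be the start of the coding sequence. Whether the Ascl5 window covers the start of transcription was not tested, so its lack of matches does not describe the Ascl5 promoter. Of the 38 neighbours, 37 had a promoter in the table, all but Kif21b. CAGCTG, which reads the same on both strands, was present in 7 of these 37 (18.9%), namely Optc, Mybph, Ptpn7, Lmod1, Shisa4, Tnnt2 and Igfn1, and in 16.1% of all 27025 promoters. CAGGTG on either strand was present in 5 of 37 (13.5%), namely Optc, Gpr37l1, Elf3, Lmod1 and Tnnt2, and in 20.03% of all promoters. These words cannot overlap one another. A match describes these letters only, and no match says only that they are not in this window.

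Ascl5 itself (chromosome 1, 136050804 to 136051370, plus strand, GRCm38) was at 10.6 and 12.1 normalized counts in mutant libraries 18 and 14, against 21.8 and 37.3 in wild-type libraries 15 and 20. The genotypes did not overlap, with mutant lower. Its log2 fold change of -1.29 (SE 0.48) had an adjusted p = 0.9999 by limma and is no call. Since the nature of the variant is not given, the level does not check the labels.

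None of the neighbours changed between the genotypes by the test over the whole table. Of the 38, 37 reached a mean of at least 1 and were tested, and 0 passed (limma, adjusted p = 0.9999 for every one), where 0.0111% of all tested rows passed. At an unadjusted p under 0.05 there was 1 neighbour, Chil1, or 2.70% of those tested, beside 4.27% of all tested rows. Genotypes did not overlap in 7 neighbours (18.9%), 5 with both mutant libraries above and 2 with both below, where 27.4% of all tested rows did not overlap. The share of neighbours with no overlap therefore lay below that of the whole table. With 1 library left out, 0 neighbours passed in any of the 4 fits, and the number at an unadjusted p under 0.05 was 3 without mutant library 18 (Lad1, Gpr37l1 and Syt2), 2 without wild-type library 20 (Nr5a2 and Chil1) and 0 without mutant library 14 or wild-type library 15. Of all tested rows in the same fits, 6.72% had an unadjusted p under 0.05 without mutant library 18, 3.02% without wild-type library 20, 2.48% without mutant library 14 and 2.99% without wild-type library 15. The log2 fold change was above 0 in 16 neighbours and below 0 in 21, with a median of -0.02, beside a median of 0.0025 over all tested rows and 50.6% of them above 0. The median size of the log2 fold change was 0.11 over the neighbours and 0.13 over all tested rows.

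**Figure D1:**
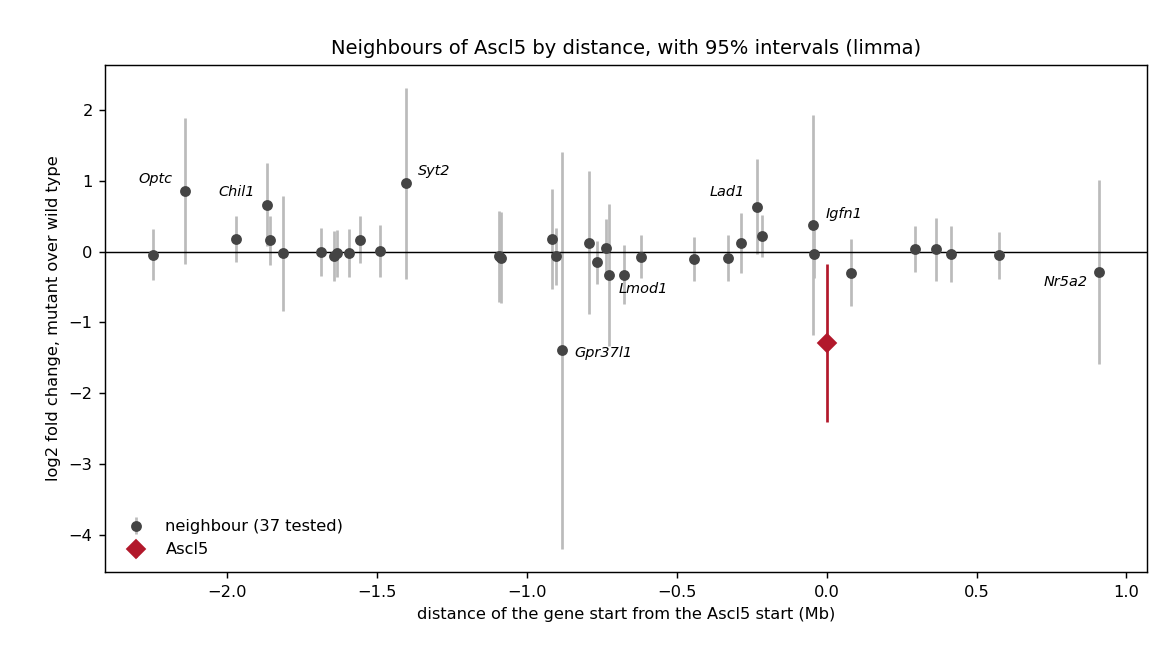
Log2 fold change of each tested neighbour, mutant over wild type, against the distance of its start from the Ascl5 start in Mb, with 95% intervals from limma as bars and Ascl5 as a red diamond at -1.29. Most neighbours sit near 0 on both sides of Ascl5, and the wide bars belong to low genes such as Gpr37l1.

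The intervals show how large a difference these data leave possible for each gene. The 95% interval lay within 2-fold in either direction for 28 of the 37 tested neighbours (75.7%, against 69.1% of all tested rows) and within 1.5-fold for 22 (59.5%, against 48.1%). Among the 29 neighbours with a mean of at least 100, all but Chil1, Elf3 and Lad1 had an interval within 2-fold. That share of 89.7% lay below the 93.9% of all tested rows at that level. Within 1.5-fold it was 75.9%, against 69.3% of those rows. Among the 8 tested neighbours with a lower mean only Adora1 and Ptpn7 did, so for Optc, Syt2, Igfn1, Lmod1, Nr5a2 and Gpr37l1 a difference of 2-fold stayed inside the interval in at least 1 direction and cannot be set aside. Of all tested rows with a mean under 100, 12.9% had an interval within 2-fold.

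For 30 of the 37 neighbours (81.1%) the difference between genotype means on the log2 scale was smaller than the larger gap between libraries of one genotype, as it was for 82.8% of all tested rows. The 7 exceptions were the same 7 whose genotypes did not overlap, namely Optc, Btg2, Chil1, Rabif, Rnpep, Shisa4 and Tnnt2. With 2 libraries in each genotype, a difference that large leaves no overlap. Each exception therefore had to be among those 7, and the match is not a separate result. Across the neighbours the median size of the log2 difference was 0.22 between the 2 mutant libraries and 0.25 between the 2 wild-type libraries. Between a mutant and a wild-type library it lay between 0.18 (mutant 18 against wild-type 20) and 0.21 (mutant 18 against wild-type 15). Over all tested rows the median was 0.23 within each genotype and between 0.18 and 0.24 across genotypes. Over the 29 neighbours with a mean of at least 100 it was 0.18 between the mutant libraries and 0.19 between the wild-type libraries. Across genotypes it was between 0.16 and 0.20, so these pairs were not set apart from those within. Over all tested rows at that level it was 0.18 within each genotype and between 0.13 and 0.19 across genotypes. The median of the 29 neighbours was the larger in every pair, within genotypes as well as across.

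**Figure D2:**
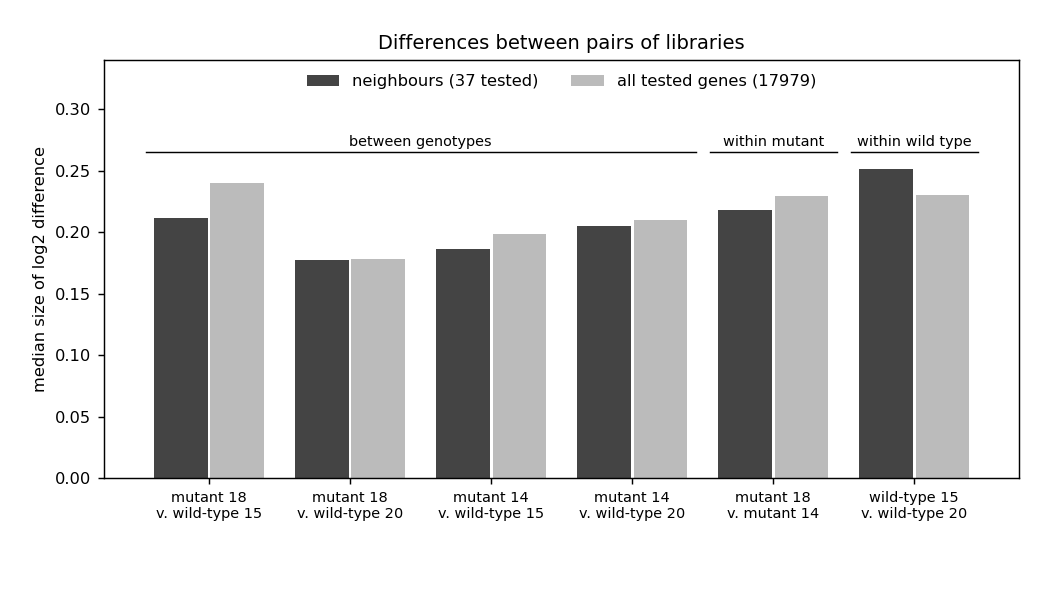
Median size of the log2 difference between each pair of libraries, over the 37 tested neighbours (dark bars) and over all 17979 tested rows (light bars). The neighbours differ by 0.18 to 0.21 between genotypes, by 0.22 between the mutant libraries and by 0.25 between the wild-type libraries, and all tested rows by 0.18 to 0.24 between genotypes and 0.23 within each.

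Neighbours of muscle and the actin skeleton make up the first group, of 6 genes. Tnnt2, the cardiac form of troponin T that developing skeletal muscle also uses (chromosome 1, plus strand, start 214 kb before that of Ascl5), was at 2184 and 2231 in mutant libraries 18 and 14, against 1955 and 1842 in wild-type libraries 15 and 20. Both mutant values were above both wild-type values by a small margin, with a log2 fold change of 0.22 (SE 0.13, unadjusted p = 0.126 by limma). Mybph, a myosin-binding protein of the thick filament, was at 1605 and 1420 in mutant and 1484 and 1232 in wild type, which overlap. The skeletal muscle markers (10 genes from Acta1 to Tnnc2, 8 with a log2 fold change above 0, none at 0 in any library) summed to 221196 and 125564 in mutant libraries 18 and 14 and to 183688 and 150476 in wild-type libraries 15 and 20. That sum overlaps between the genotypes, and Myh8 and Acta1 make up much of it. Of these 10 markers, 1 did not overlap, where 27.4% of all tested rows did not. That marker was Myog, a transcription factor of muscle differentiation. Myog also lies in the region, with a start 1761 kb before that of Ascl5, but is not on the list. It was at 2463 and 2338 in mutant libraries 18 and 14. In wild-type libraries 15 and 20 Myog was at 2068 and 2039 (log2 fold change 0.22). Tnni1, a slow-muscle troponin I that lies beside Tnnt2, is not on the list and was named after its values were seen. It did not overlap either, at 2686 and 2539 in mutant libraries 18 and 14, against 2287 and 2257 in wild-type libraries 15 and 20 (log2 fold change 0.20). The part of muscle in the value of Tnnt2 was not tested. In bulk tissue, fewer cells of a type and less RNA per cell cannot be told apart.

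The other members of the group overlapped between genotypes. Csrp1, a LIM protein that binds the actin skeleton and is abundant in smooth muscle, was at 4051 and 3706 in mutant and 3847 and 4402 in wild type. Lmod1, an actin nucleator of smooth muscle, was at 25.7 and 55.9 in mutant and 49.2 and 46.4 in wild type, so mutant library 18 was low and mutant library 14 the highest. The smooth muscle markers (6 genes, 1 above 0 and 5 below, none at 0) summed to 15786 and 12685 in mutant and 16469 and 13205 in wild type. Des and Acta2 make up much of that sum. It was lowest in mutant library 14, where Lmod1 was highest, and the part of smooth muscle in the value of Lmod1 was not tested.

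Ppp1r12b, a regulatory subunit of myosin phosphatase, was at 261 and 216 in mutant and 323 and 190 in wild type. Igfn1, an immunoglobulin-like and fibronectin protein of skeletal muscle whose start is 44.5 kb before that of Ascl5, was at 9.52 and 22.4 in mutant and 17.7 and 6.93 in wild type. The genotype means of Igfn1 were 15.95 ± 9.098 and 12.3 ± 7.64 (SD, n = 2 each), and the spread within each genotype exceeded the difference between them.

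The 2 epithelial neighbours were highest in mutant library 14. Lad1, ladinin 1, a protein of epithelial basement membrane and actin skeleton whose start is 232 kb before that of Ascl5, was at 1035 and 2002 in mutant libraries 18 and 14, against 1040 and 822 in wild-type libraries 15 and 20. Mutant library 18 lay within the wild-type range, so the log2 fold change of 0.64 (SE 0.29, 95% interval -0.03 to 1.31) rests on library 14. Without mutant library 14 the log2 fold change of Lad1 was 0.16, and without mutant library 18 it was 1.11. Elf3, an Ets transcription factor of epithelia, was at 95.8 and 239 in mutant and 176 and 109 in wild type, so the mutant libraries were both the lowest and the highest. All 10 keratinocyte markers had a log2 fold change above 0, and none was at 0 in any library. Genotypes did not overlap in 8 of the 10, beside 27.4% of all tested rows. The keratinocyte markers summed to 152769 and 225593 in mutant libraries 18 and 14 and to 96047 and 91083 in wild-type libraries 15 and 20. They too were highest in mutant library 14, but their sum in mutant library 18 was also above both wild-type sums. Of the 10 markers, 7 had an unadjusted p under 0.05 by limma, beside 4.27% of all tested rows. The part of the keratinocyte markers in the values of Lad1 and Elf3 was not tested.

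**Figure D3:**
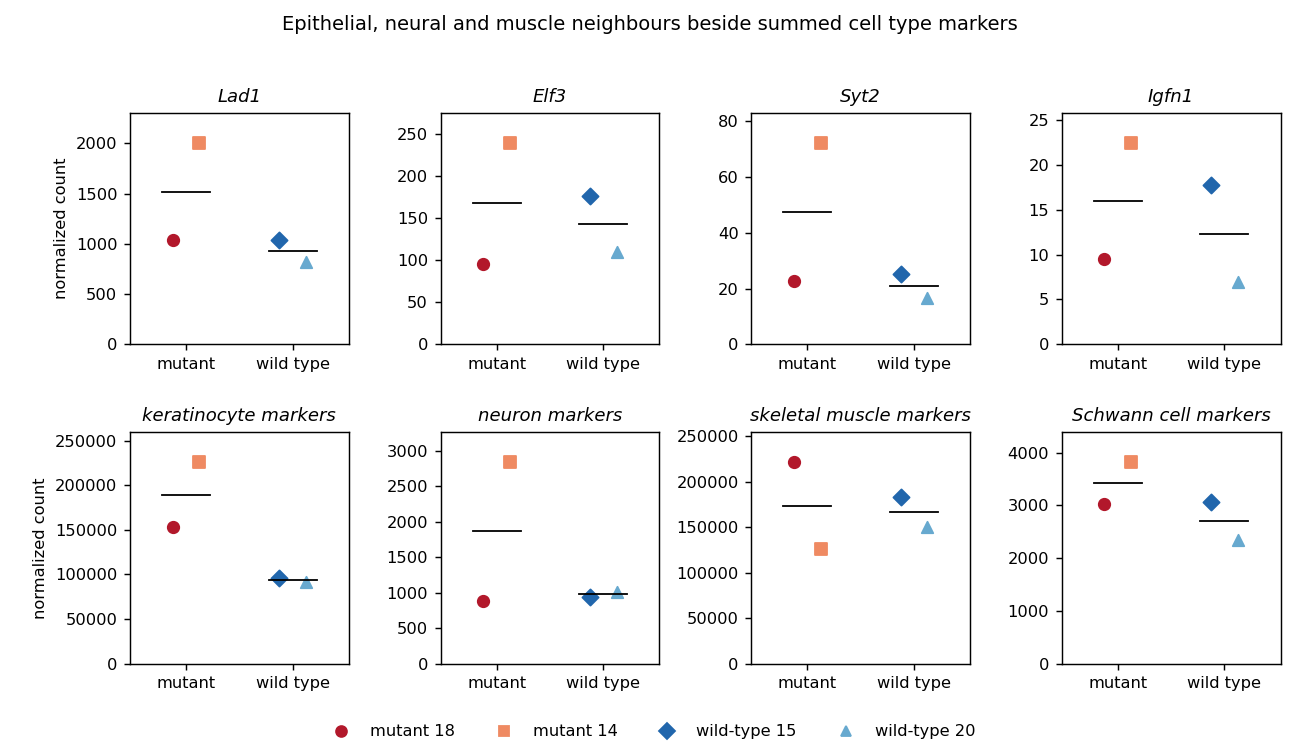
Normalized counts of Lad1, Elf3, Syt2 and Igfn1 (upper row) and summed normalized counts of keratinocyte, neuron, skeletal muscle and Schwann cell markers (lower row) in each library, with genotype means as lines. Mutant library 14 is the highest for all 4 neighbours and for 3 of the 4 marker sums, and the lowest for skeletal muscle markers.

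Neural and microtubule genes form a group of 6, and none had genotypes that did not overlap. Syt2, a calcium sensor of synaptic vesicles, was at 22.9 and 72.0 in mutant libraries 18 and 14, against 25.2 and 16.8 in wild-type libraries 15 and 20. Only mutant library 14 was high, and the log2 fold change of 0.97 (SE 0.58) was 0.15 without that library and 1.78 without mutant library 18. All 7 neuron markers had a log2 fold change above 0, and none was at 0 in any library. Of the 7, 2 did not overlap, where 27.4% of all tested rows did not. The neuron markers summed to 890 and 2839 in mutant libraries 18 and 14 and to 945 and 1006 in wild-type libraries 15 and 20. Neuron markers were thus also high in mutant library 14 alone, and their part in the value of Syt2 was not tested.

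Gpr37l1, a receptor of glial cells, was listed at 2.86 and 0 in mutant and 4.16 and 1.99 in wild type, too low for a comparison. The Schwann cell markers (6 of 6 above 0, 3 with no overlap) summed to 3030 and 3813 in mutant and 3058 and 2340 in wild type. The share with no overlap over all tested rows was 27.4%. Adora1, the adenosine A1 receptor, was at 50.01 and 58.3 in mutant and 68.9 and 43.8 in wild type, with both mutant values inside the wild-type range.

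Kif21b, a kinesin that moves along microtubules and the nearest listed gene after Ascl5, starts 80.6 kb past it. It was at 363 and 422 in mutant and 563 and 410 in wild type, so only wild-type library 15 was high. Its log2 fold change of -0.30 (SE 0.20) was -0.07 without that library. Nav1, a microtubule-binding neuron navigator, was at 2912 and 2781 in mutant and 3278 and 2872 in wild type, and Camsap2, which caps microtubule minus ends, was at 3482 and 2956 in mutant and 3131 and 3123 in wild type. Both are well-measured genes within 0.5 Mb of Ascl5, and their 95% intervals were -0.42 to 0.20 for Nav1 and -0.28 to 0.36 for Camsap2.

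Of 4 genes of cell division, DNA repair and the p53 response, 1 did not overlap. Btg2, an antiproliferative target of p53, was at 759.0 and 759.7 in mutant libraries 18 and 14, against 674.02 and 671 in wild-type libraries 15 and 20. The libraries of each genotype were almost equal and the genotypes differed by 1.129-fold (log2 fold change 0.17, SE 0.14), and limma, which shares the spread across genes, gave an unadjusted p = 0.247. Phlda3, another p53 target that restrains Akt and lies 285 kb before Ascl5, overlapped at 807 and 936 in mutant and 689 and 921 in wild type. The list of 8 other p53 targets had 5 above 0 and 3 below, and summed to 13079 and 11720 in mutant and 11838 and 11622 in wild type. Of these 8 targets, 2 did not overlap, where 27.4% of all tested rows did not.

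Kif14, a kinesin of cytokinesis, was at 502 and 507 in mutant and 578 and 460 in wild type. Ube2t, the ubiquitin-conjugating enzyme of the Fanconi anaemia repair pathway, was at 111 and 118 in mutant and 98.8 and 149 in wild type. Both mutant values of each gene lay between the wild-type ones. The cell cycle markers (9 genes, 3 above 0 and 6 below) summed to 29355 and 26840 in mutant and 26217 and 30327 in wild type.

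The 4 nuclear regulators overlapped between genotypes. Kdm5b, a demethylase of lysine 4 of histone H3, was at 2802 and 3461 in mutant and 3327 and 2880 in wild type. Zfp281, a zinc finger factor of pluripotent cells, was at 1134 and 974 in mutant and 1106 and 1069 in wild type. Ddx59, an RNA helicase, was at 367 and 293 in mutant and 307 and 336 in wild type.

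Nr5a2, a nuclear receptor and the last listed gene after Ascl5, was at 49.4 and 58.7 in the mutant libraries and 126 and 34.3 in the wild-type ones. Wild-type library 15 alone was high, and the log2 fold change of -0.29 became 0.64 without it and -1.22 without wild-type library 20. Its value therefore turned with the choice of wild-type library.

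Genes of organelles, transport and metabolism are the largest group, of 11. All 11 had a 95% interval within 2-fold, and 10 within 1.5-fold, with Shisa4 as the exception. These are genes with a mean of at least 100, and of all tested rows at that level 93.9% had an interval within 2-fold and 69.3% within 1.5-fold. The median log2 fold change was -0.03, with 2 above 0 and 9 below. Shisa4, a transmembrane protein of the Shisa family, was at 281 and 269 in mutant libraries 18 and 14, against 368 and 324 in wild-type libraries 15 and 20. Both mutant values were below both wild-type values (log2 fold change -0.33, SE 0.18, unadjusted p = 0.106 by limma). Rnpep, the arginyl aminopeptidase B, was at 983 and 1015 in mutant and 1123 and 1098 in wild type, again with both mutant values below (log2 fold change -0.15, SE 0.13).

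Rabif, a chaperone of Rab GTPases, was at 870.1 and 812 in the mutant libraries and 717 and 781 in the wild-type ones, with both mutant values above (log2 fold change 0.17, SE 0.14). Tmem9, a lysosomal membrane protein whose start is 42.7 kb before that of Ascl5 and the nearest of the listed genes, was at 1252 and 1307 in mutant and 1186 and 1438 in wild type. Its mutant values lay inside the wild-type range, and its 95% interval was -0.37 to 0.31.

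Of the remaining 7, Timm17a, a subunit of the import channel of the mitochondrial inner membrane, was at 1039.5 and 892 in mutant and 814 and 1054 in wild type, and it overlapped. Ipo9, a nuclear import receptor, was at 3316 and 3379 in mutant and 3679 and 3366 in wild type, which overlap. Arl8a, a small GTPase of lysosome movement, was at 918 and 1235 in mutant and 1146 and 1088 in wild type. For Arl8a the mutant libraries were both the lowest and the highest.

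Adipor1, a receptor of adiponectin, was at 2944 and 3462 in mutant and 3410 and 3095 in wild type. Klhl12, an adaptor of the Cul3 ubiquitin ligase, was at 626 and 656 in mutant and 629.99 and 675 in wild type. Cyb5r1, a cytochrome b5 reductase, was at 679.9 and 597 in mutant and 676 and 651 in wild type. Tmem183a, a membrane protein, was at 1831 and 1668 in mutant and 1599.5 and 1923 in wild type. These 4 genes follow each other in the list along the chromosome and had log2 fold changes between -0.06 and -0.0052, each overlapping between genotypes.

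**Figure D4:**
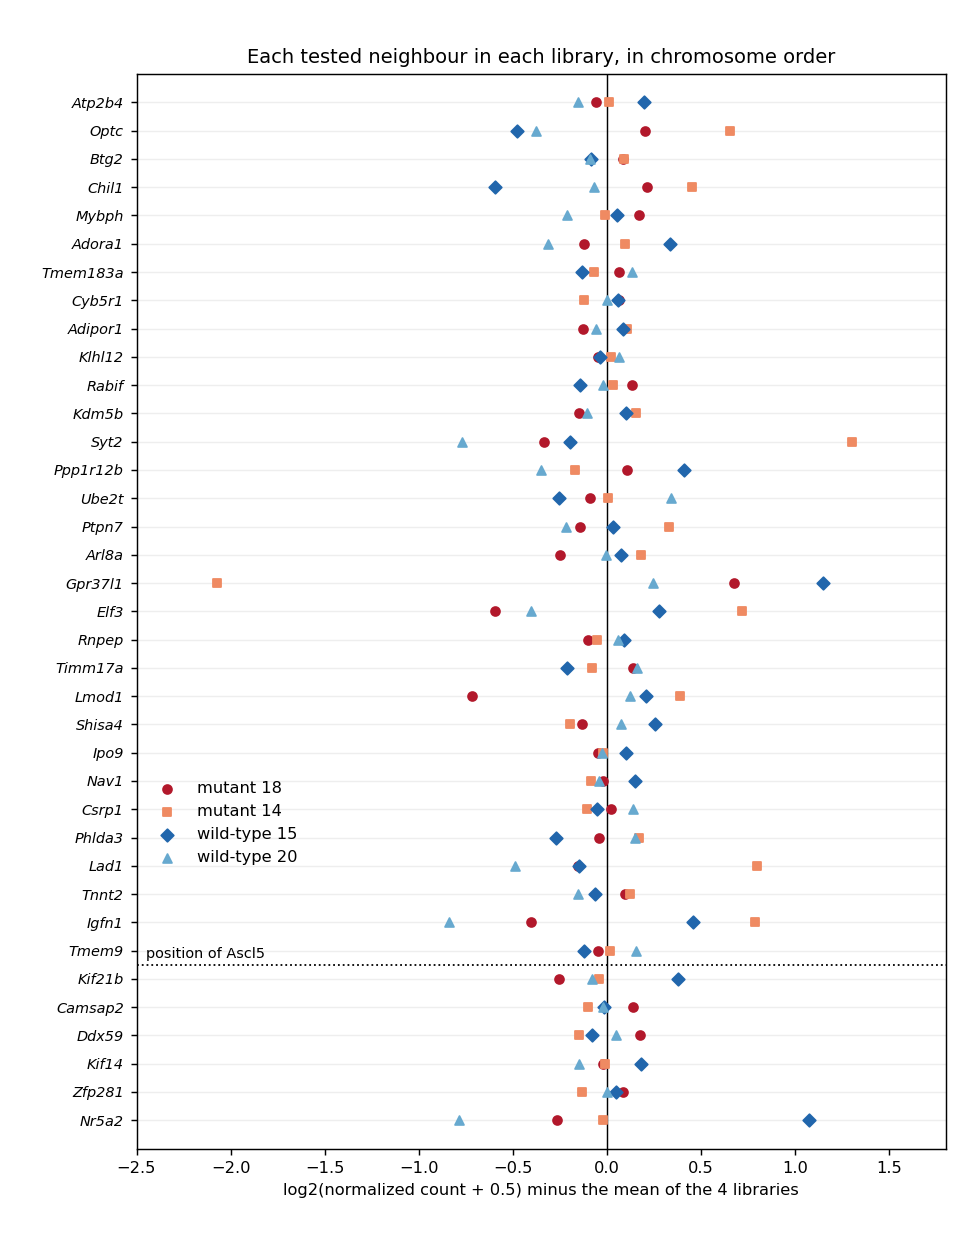
Value of each tested neighbour in each library, as log2(normalized count + 0.5) minus the mean of the 4 libraries, in chromosome order from the top, with a dotted line at the position of Ascl5. Mutant library 14 lies far to the right for Syt2, Lad1, Igfn1 and Elf3, and wild-type library 15 for Nr5a2, while most genes stay close to 0 in all 4 libraries.

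The last group holds 5 genes of matrix, immune cells, ion transport and other roles. Chil1, a secreted chitinase-like glycoprotein (chromosome 1, plus strand, start 1869 kb before that of Ascl5), was at 195 and 230.4 in mutant libraries 18 and 14, against 111 and 161 in wild-type libraries 15 and 20. Both mutant values were above both wild-type values, the means were 213 ± 24.8 and 136 ± 34.9 (SD, n = 2 each), and the ratio of means was 1.57. The log2 fold change was 0.66 with a standard error of 0.25 and a 95% interval of 0.07 to 1.26 (limma, unadjusted p = 0.0322, adjusted p = 0.9999). It was 0.40 without wild-type library 15 and 0.93 without wild-type library 20. Of the neighbours with no overlap, only Btg2 and Optc lie farther from Ascl5.

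Optc, opticin, a small leucine-rich proteoglycan known from the eye (minus strand, start 2143 kb before that of Ascl5), was at 22.4 and 30.8 in mutant libraries 18 and 14, against 13.8 and 14.8 in wild-type libraries 15 and 20. Both mutant values were above both wild-type values, with a log2 fold change of 0.86 (SE 0.45, 95% interval -0.18 to 1.89). Prelp and Fmod, related proteoglycans beside Optc that are not on the list, lay the other way. Prelp was at 567 and 598 in mutant and 869 and 707 in wild type, and Fmod, named after its value was seen, was at 2512 and 2349 in mutant and 3030.1 and 2912 in wild type. Neither was called (limma, adjusted p = 0.9999 for both), and the 3 genes did not share a direction.

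Ptpn7, a tyrosine phosphatase of blood cells, was at 66.8 and 92.7 in mutant and 75.6 and 63.4 in wild type. Of the 8 leukocyte markers, 7 were tested, 5 above 0 and 2 below. Genotypes did not overlap in 3 of the 7, beside 27.4% of all tested rows. The leukocyte markers summed to 8885 and 7732 in mutant libraries 18 and 14. In wild-type libraries 15 and 20 they summed to 6065 and 7435. Of these markers Cd3e was at 0 in mutant library 18 only. Atp2b4, a calcium pump of the plasma membrane and the farthest listed gene from Ascl5, was at 3683 and 3867 in mutant and 4401 and 3445 in wild type, which overlap. Gpr25, an orphan receptor 210.1 kb past Ascl5, was listed at 1.90 in mutant library 18 and at 0 in the other 3 libraries. It was not tested, and 1.90 is 2 times the commonest low value of that library.

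**Figure D5:**
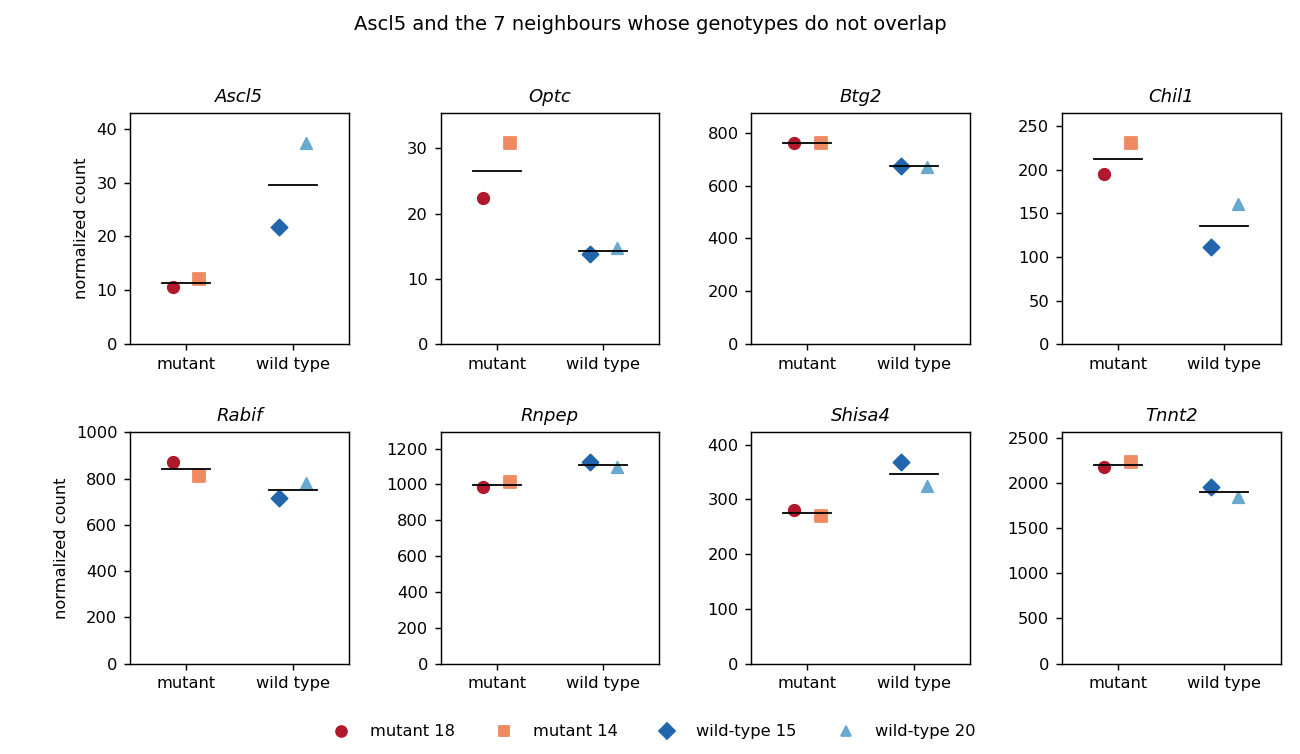
Normalized counts of Ascl5 and of the 7 neighbours whose genotypes did not overlap, in mutant libraries 18 and 14 (left) and wild-type libraries 15 and 20 (right), with genotype means as lines and axes from 0. Ascl5, Rnpep and Shisa4 are lower in mutant and the other 5 are higher, and only Ascl5, Optc and Chil1 differ by more than 1.5-fold in their means.

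The neighbours were also described by their distance from Ascl5, with no test of an order. Of the 11 tested neighbours within 0.5 Mb of the Ascl5 start, 1 (9.09%, Tnnt2) had genotypes that did not overlap and the median size of the log2 fold change was 0.11. Between 0.5 and 1 Mb it was 2 of 11 (18.2%, Rnpep and Shisa4), with a median size of 0.15. Between 1 and 2 Mb it was 3 of 13 (23.1%, Btg2, Chil1 and Rabif), with a median size of 0.06. Beyond 2 Mb there were only Atp2b4 and Optc, and Optc did not overlap. The share with no overlap was thus larger in each range farther out, on counts of 1 to 3 genes, while the median size of the log2 fold change was smallest between 1 and 2 Mb. Over all annotated genes of the region, listed or not, 3 of 18 did not overlap within 0.5 Mb (16.7%), 4 of 14 between 0.5 and 1 Mb (28.6%), 5 of 16 between 1 and 2 Mb (31.25%) and 19 of 56 between 2 and 5 Mb (33.9%). Beside the 27.4% of all tested rows, these shares were lower within 0.5 Mb and higher in the other 3 ranges.

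The list leaves out other genes of the region, so all annotated genes with a row and a start within 5 Mb of Ascl5 were also taken by coordinate. There were 127 besides Ascl5, of which 104 were tested, and 0 passed. At an unadjusted p under 0.05 there were 7 of these 104 (6.73%), beside 4.27% of all tested rows, and 31 (29.8%) did not overlap, beside 27.4%. Of the 67 tested genes that are not on the list, 6 had an unadjusted p under 0.05 (8.96%) and 24 did not overlap (35.8%). The count of 7 was 2 without mutant library 14, 9 without mutant library 18, 2 without wild-type library 15 and 6 without wild-type library 20, and 3 in limma without the variance trend. The share of all tested rows was also below its 4.27% without mutant library 14 (2.48%), wild-type library 15 (2.99%) or wild-type library 20 (3.02%), and above it without mutant library 18 (6.72%). The 5 genes off the list with the smallest p were Lhx9, Pkp1, Rassf5, Prelp and Ptprv.

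Lhx9, a LIM homeobox transcription factor whose start is 2798 kb past that of Ascl5, was at 2.04 and 0 in mutant libraries 18 and 14, against 21.04 and 11.6 in wild-type libraries 15 and 20 (limma, adjusted p = 0.590). Pkp1, plakophilin 1 of the desmosome, starts 132 kb before Ascl5 and was at 7047 and 10498 in the mutant libraries and 5729 and 5481 in the wild-type ones (log2 fold change 0.62, limma, adjusted p = 0.882). Like Lad1 it was highest in mutant library 14, where the keratinocyte markers were also highest. Rassf5, an effector of Ras GTPases, was at 508 and 733 in mutant and 466 and 309.9 in wild type, and Ptprv, a receptor-type tyrosine phosphatase of mouse osteoblasts, was at 1049 and 771 in mutant and 1371 and 1152 in wild type. Cacna1s, a calcium channel of skeletal muscle named after its values were seen, starts 1.95 kb past the Ascl5 start, nearer than any listed neighbour. It was at 759 and 517 in mutant and 832 and 538 in wild type, and the genotypes overlapped.

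The neighbours also differed in which library was extreme. Mutant library 14 was the highest of the 4 in 14 of the 37 tested neighbours (37.8%, against 25.9% of all tested rows), and wild-type library 15 in 11 (29.7%, against 26.6%). Mutant library 18 and wild-type library 20 were the highest in 6 each. Wild-type library 20 was the lowest in 12 (32.4%, against 23.3%), mutant library 18 in 9, and mutant library 14 and wild-type library 15 in 8 each.

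Some neighbours overlap other genes, and whether the authors counted by strand is not stated in the labels. Mybph and Adora1 overlap by 2010 bases on opposite strands, and Syt2 and Ppp1r12b by 7936 bases. These are overlaps of whole gene spans, and exons were not compared. The library kit was stranded, but reads counted there without strand could count for either gene. The values of these 4 genes, each overlapping a protein-coding gene on the other strand, carry that uncertainty. With annotated genes of any type, 13 of the 38 neighbours overlap a gene on the other strand and carry it too. Rnpep, Elf3, Camsap2 and Gpr25 are among the 13. Of the 38 neighbours, 7 overlap another gene that has a row in the table.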

How the data were processed

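Per the labels' protocols, a column kit yielded the RNA and a stranded mRNA kit the libraries, which were sequenced on a NovaSeq instrument, per the series' design text. Each deposited signal value is a normalized count made by the authors, 1 for each gene in each library. DESeq2 and build mm10 are named in the submitters' processing notes, with no version, and an Illumina program for differential expression appears in the design text. Which aligner, counter, strand setting and annotation were used is not given in the sources. Between 32.3% and 35.0% of the values above 0 were whole multiples, within 0.1, of the commonest low value of their library, so reads could not be recovered, no count test was run and exact depth is unknown.

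Rows with a mean of at least 1 were transformed to log2(value + 0.5) and genotype was fitted with limma 3.58.1 (mean-variance trend) in R 4.3.3, with Benjamini-Hochberg adjustment over all rows tested. A pseudocount understates fold changes of low genes. The script was tested on simulated data. Positions come from GENCODE M21 on GRCm38, the assembly of mm10, where all 38 symbols matched. Distances run between gene starts. Promoters come from RefSeq on GRCm38.p6.

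Named genes are Ascl5, the 38 neighbours, the 5 other genes within 5 Mb with the smallest p, and markers of other cell types. Fmod, Cacna1s and Tnni1 were named after their values were seen. One gene of the dental marker list, and with it the list's sum, is not reported here. The neighbours and lists were chosen with earlier results of these data known. Alternatives covered scaling, filter, pseudocount, variance shrinkage, weights, window and each library left out.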

Additional observations from a re-analysis of the deposited data

How the results depend on the processing

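The number of neighbours that passed over the whole table was 0 in each of the 14 alternatives, with a smallest adjusted p of 0.479 (limma, Lad1 without mutant library 18), and so was the number of genes that passed within 5 Mb of Ascl5. Windows of 1 and 10 Mb were tried with the other settings as reported, and 0 genes passed in each. Among all tested rows 2 passed, against 1 with no filter, 1 without the variance trend, 4 with robust shrinkage and 0 with vooma weights, and between 0 and 5 passed with 1 library left out. The cause was not tested. Leaving out wild-type library 15 leaves the remaining 3 libraries alike in their sex genes and stands for a sex covariate. The log2 fold change of Ascl5 stayed below 0 in all 14 alternatives and was not past the threshold in any.

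Leaving out 1 library turned the direction of 23 of the 37 tested neighbours, none of them past the threshold in any fit. Their log2 fold changes ranged over -0.22 to 0.13 for Atp2b4, -0.35 to 0.30 for Adora1, -0.14 to 0.13 for Tmem183a, -0.15 to 0.034 for Cyb5r1, -0.14 to 0.092 for Adipor1, -0.074 to 0.025 for Klhl12, -0.14 to 0.16 for Kdm5b, -0.44 to 0.32 for Ppp1r12b, -0.38 to 0.21 for Ube2t, -0.051 to 0.42 for Ptpn7, -0.28 to 0.15 for Arl8a, -0.53 to 0.78 for Elf3, -0.13 to 0.24 for Timm17a, -0.88 to 0.22 for Lmod1, -0.18 to 0.011 for Csrp1, -0.084 to 0.33 for Phlda3, -0.27 to 1.03 for Igfn1, -0.17 to 0.11 for Tmem9, -0.081 to 0.16 for Camsap2, -0.13 to 0.19 for Ddx59, -0.20 to 0.13 for Kif14, -0.16 to 0.061 for Zfp281 and -1.22 to 0.64 for Nr5a2. The other 14 kept their direction in these 4 fits. Of the remaining 10 alternatives, scaling to library totals turned Tmem183a to 0.0042 and quantile normalization turned Ddx59 to -0.017, and no other neighbour turned. A fit without 1 library has 1 residual degree of freedom, and its lone library is assumed to vary like the others. Exact depth is unknown, and the low neighbours Nr5a2, Syt2 and Igfn1 also differed widely between libraries of one genotype. No paired analysis was possible because the library codes of the genotypes share no number.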
